A study of Mus musculus with 2 samples.

Results

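The interleukin-1 (IL-1) family genes described here are Il1a, Il1b, Il18, Il33, Il1rn, Il18bp, Il1r1, Il1rap, Il1rl1 and Il1r2. They were taken by name: every non-control spot whose gene name, or current RefSeq symbol of its accession, was 1 of these 10 symbols. This gave 23 spots per array, which are 14 probes for 10 of the 27238 genes with a named probe, and all 10 genes were among the 15680 measured ones. A gene counts as measured when 1 cell pool, the same on array 1 and array 2, passed the scanner software's flag for signals well above background.

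The series compared RNA of 2 pools of sorted mouse cells. The colon pool held cells sorted as CX3CR1high CD11b+ CD11c+ out of the large intestine's lamina propria, a connective tissue layer below the epithelium. Their donors were CX3CR1gfp/+ mice, which carry green fluorescent protein in place of 1 allele of Cx3cr1, the gene of the fractalkine receptor. The blood pool held Ly6c+ CD11b+ monocytes of C57BL/6J mice. No treatment, age or sex is stated for either pool, and what the design text counts as n = 10 (colon) and n = 6 (blood) is not stated. Tissue, mouse line, cell isolation and cell type differ together between the pools and cannot be told apart.

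Each of 2 two-colour arrays carried both pools. Array 1 had the colon pool in Cy5 and the blood pool in Cy3, and array 2 had them the other way round. The arrays repeat 1 comparison of the same pools and count as 1 replicate, so no test was possible and no p-value is given. Ratios below are on the log2 scale, colon pool over blood pool, and each ± is the SD over the 2 arrays, which covers technical error alone. A gene was called higher or lower when array 1 and array 2 each showed a ratio of 2-fold or more, in 1 direction, and the brighter pool was well above background on both. In a bulk pool, fewer cells of a type and less RNA per cell cannot be told apart.

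IL-1 family cytokines are alarm signals of injured tissue and of activated myeloid cells. IL-1 alpha and IL-1 beta bind the receptor IL-1R1, which recruits the accessory protein IL-1RAP and signals through MyD88 and IRAK kinases to NF-kappaB. IL-33 acts in the same way through ST2, the product of Il1rl1, and IL-18 through a receptor pair of its own. The system carries several brakes: the receptor antagonist IL-1RN occupies IL-1R1 without signalling, the decoy receptor IL-1R2 takes up ligand without signalling, and IL-18BP sequesters IL-18. In the intestine, macrophages of the lamina propria are a known source of IL-1 beta, and IL-33 is known from stromal and epithelial cells.

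The array reads each gene through probes of 60 bases, and the first 30 bases of the ones on which the results turn are printed here as the files give them. Il1b and Il1rn are shown as the cytokine and the antagonist with ratios of similar size under the main processing. The 3 probes each of Il1rl1 and Il1rap are shown because they did not read alike. The Il1rap probes lie in different transcripts, whereas the Il1rl1 probes at bases 4998 and 2825 lie in the same one. Numbers after "base" are the probe's first base in its transcript, per the files.
Il1b, NM_008361, base 1236: aggttcctataatatggatgagaattttta
Il1rn, NM_001039701, base 562: aacacaccggaagagccccttatagtcacg
Il1rl1, NM_001025602, base 4998: gccattgactccttgtgtgttttcttcatg
Il1rl1, NM_010743, base 2563: ctctgtaacaggatcttttgtctagatttc
Il1rl1, NM_001025602, base 2825: ccttacccaaattgccattacagtcgagca
Il1rap, NM_134103, base 1409: gatgttgtcaacgcctttgtttctaaatgt
Il1rap, NM_008364, base 3256: catacatctttcagtagtcattggcaaaat
Il1rap, ENSMUST00000096129, base 4374: ccattttctttaaccagctcttccttgatc

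Promoters of Il1a, Il1b and Il1rn follow, as the 250 bases before a transcription start that RefSeq lists on build GRCm38.p6, each written 5′ to 3′ on the gene's own strand. They are shown because these 2 agonist genes and the antagonist gene were higher in the same pool. Capitals mark matches to 4 short motifs searched on both strands: a kB-type site (GGGA, any 2 bases, TTCC), an AP-1 site (TGANTCA), a PU.1 site (GAGGAAG) and a C/EBP-type site (TTNNGNAA).
Il1a, chr2:129309973-129310222, minus strand: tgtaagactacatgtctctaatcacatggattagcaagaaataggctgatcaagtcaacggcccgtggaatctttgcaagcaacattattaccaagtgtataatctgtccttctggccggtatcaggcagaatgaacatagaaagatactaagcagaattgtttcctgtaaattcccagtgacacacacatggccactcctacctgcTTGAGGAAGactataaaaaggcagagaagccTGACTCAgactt
Il1b, chr2:129371140-129371389, minus strand: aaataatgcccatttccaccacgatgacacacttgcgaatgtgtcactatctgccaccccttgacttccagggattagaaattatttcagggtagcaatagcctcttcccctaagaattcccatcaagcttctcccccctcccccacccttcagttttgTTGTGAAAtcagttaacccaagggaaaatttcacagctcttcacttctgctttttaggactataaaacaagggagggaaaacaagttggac
Il1rn, chr2:24336610-24336859, plus strand: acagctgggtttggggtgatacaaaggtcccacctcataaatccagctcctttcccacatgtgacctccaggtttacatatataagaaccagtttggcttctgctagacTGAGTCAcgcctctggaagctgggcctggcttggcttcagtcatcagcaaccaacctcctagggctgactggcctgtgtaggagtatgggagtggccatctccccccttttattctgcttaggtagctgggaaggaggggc

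In the Il1a window the C/EBP-type match TTGAGGAA begins 43 bases before the start and overlaps the PU.1 match GAGGAAG, which begins 41 bases before it. The AP-1 match TGACTCA of Il1a begins 12 bases before the start. Il1b has a C/EBP-type match, TTGTGAAA, 91 bases before its start, and this Il1rn window, of 1 of the 3 starts listed, has an AP-1 match, TGAGTCA, 141 bases before it. Among all 32851 promoter windows of this length, 36.8% hold the C/EBP-type letters, 10.6% the PU.1 letters, 6.75% the AP-1 letters and 1.21% the kB-type letters. The 10 genes have 15 windows, and 0 of them hold the kB-type letters. C/EBP-type letters also stand in windows of Il18bp, Il33, Il1r1 and Il1rl1 and of other starts of Il1rn. Genes with several windows have more chances of a match, so matches are not counted by gene. Such matches describe letters, not bound factors, and only these 250 bases were searched.

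Of the 10 IL-1 family genes, 8 were called higher in the colon pool, 0 were called lower and 2, Il18 and Il1rap, were not called. Across the array, 18.6% of measured genes were called, 14.2% higher and 4.46% lower. Of these calls 76.1% were higher, and with the scanner software's ratios 60.4% (3176 higher and 2081 lower genes). The median ratio of the 10 genes was 2.13, against 0.06 over all measured genes. Agonist cytokines were called higher for 3 of 4 genes (median 2.56), the antagonist and the binding protein for 2 of 2 (median 2.91), and the receptors for 3 of 4 (median 1.74). Both the activating ligands and the genes that restrain them were therefore among the called genes.

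Il1b encodes IL-1 beta, which is made as an inactive precursor and cut by caspase-1. Its probe lies on chromosome 2, 129190347 to 129190406 (mouse build mm9, minus strand), and was spotted 10 times per array. The colon pool gave a mean intensity of 70826 on array 1 and 30438 on array 2, and the blood pool 4070 and 13449. Both pools were far above the local background on both arrays, and the colon pool was the brighter one each time. The normalized ratio was 3.51 on array 1 and 3.50 on array 2, with a mean of 3.50 ± 0.01 (11.3-fold), above 98% of measured genes. Among the 10 spots the ratio ran from 3.41 to 3.59 on array 1 (SD 0.05) and from 3.46 to 3.53 on array 2 (SD 0.02), so every spot gave nearly the same value. With median centring instead of loess, a fit that removes the dye trend along intensity, it was 2.69 and still called.

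Il1a encodes IL-1 alpha, which is active as a precursor and acts as an alarm signal of dying cells. Its probe lies 64.4 kb from that of Il1b (chromosome 2, 129125994 to 129126053, minus strand). The colon pool read 941 on array 1 and 397 on array 2. The blood pool read 59.6 and 69.9, the first not well above background and the second so by a small margin over a local background of 43. The colon signal thus stood clear of the blood signal on both arrays, with ratios of 3.23 and 3.35 (mean 3.29 ± 0.08, 9.8-fold). Since the blood signal was well above background on 1 of the 2 arrays alone, the size of this fold is uncertain. With the ratio of the scanner software, which subtracts the background without an offset, it was 5.24.

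Il33 encodes the nuclear alarmin IL-33 (chromosome 19, 30035101 to 30035160, plus strand). The colon pool read 323 on array 1 and 139 on array 2, both well above background. The blood pool read 47.3 and 43.5, near the local background on both arrays. The blood value is therefore a bound, and averaged over both arrays Il33 was at least 3.55-fold higher in the colon pool. Its ratios were 1.94 and 1.72 (1.83 ± 0.16), so array 2 alone lay below this bound. The scanner software's ratio was 5.48, the widest gap between processing choices among the 10 genes.

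Il18 encodes IL-18, which like IL-1 beta is cut by caspase-1 (chromosome 9, 50389761 to 50389820, plus strand). It stood apart from the other 3 agonists. The colon pool read 1353 on array 1 and 571 on array 2, and the blood pool 1567 and 3120. The blood pool was thus the brighter one on both arrays, by a narrow margin on array 1. Its ratios were -0.73 and -0.48 (mean -0.60 ± 0.18, 1.52-fold lower), which did not reach the size for a call, and 12.7% of measured genes lay below it. Median centring gave a mean of -1.27 without a call, since array 1 read -0.47 and array 2 -2.07.

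**Figure D1:**
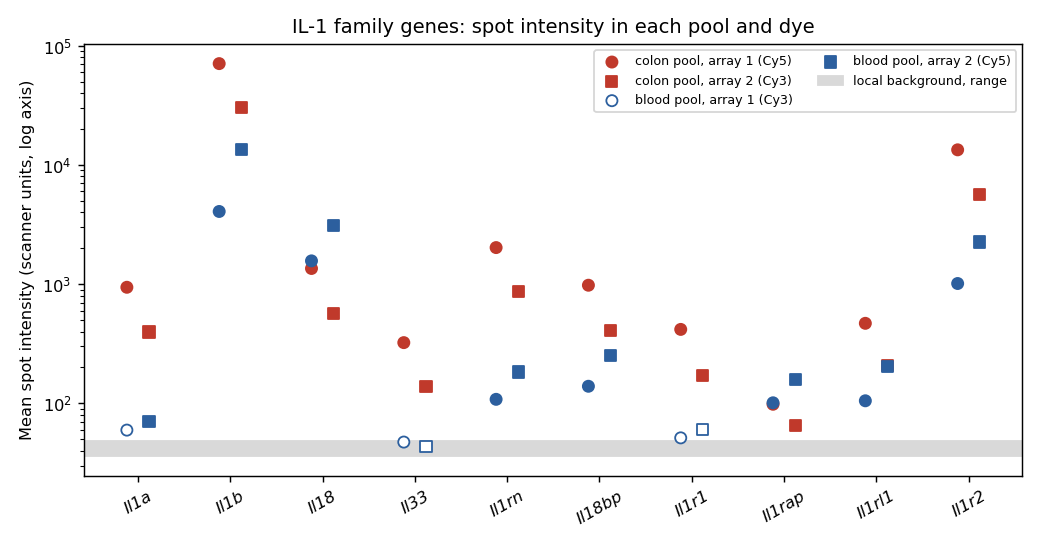
Mean spot intensity (scanner units, log axis) of the 10 IL-1 family genes in the colon pool (red) and the blood pool (blue) on array 1 (circles) and array 2 (squares); open symbols are not well above background and the grey band is the range of the local background. For Il1b the colon pool read 70826 and 30438 and the blood pool 4070 and 13449, while the blood spots of Il33 and Il1r1 are open on both arrays.

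Il1rn is the gene of the receptor antagonist. Its probe lies on chromosome 2, 24205094 to 24205153 (plus strand), in the transcript the files describe as variant 2. The colon pool read 2026 on array 1 and 863 on array 2, and the blood pool 108 and 183. All these signals were well above background, and the colon pool was the brighter one on both arrays. The ratios were 3.56 and 3.75 (mean 3.65 ± 0.14, 12.6-fold), above 98.3% of measured genes. It ran from 3.15 to 4.18 over the processing alternatives tried and was called under each of them. The Il1rn and Il1b ratios differed by about the SD between the arrays.

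Il18bp, the gene of the secreted IL-18 binding protein (chromosome 7, 109164100 to 109164159, minus strand), read 979 and 411 in the colon pool and 139 and 250 in the blood pool. Its ratios were 2.16 and 2.18, a mean of 2.17 ± 0.01 (4.49-fold). Before normalization the colon over blood intensity ratio was 7.07 on array 1 and 1.64 on array 2, the latter short of 2-fold. Median centring gave a mean of 1.71, still called, with 2.42 on array 1 and array 2 just at the 2-fold threshold. The size on array 2 thus depends on the scaling. Il18bp and its ligand gene Il18 therefore lay on opposite sides of 0, on both arrays.

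Il1r2 encodes the decoy receptor (chromosome 1, 40180014 to 40180073). The colon pool read 13392 on array 1 and 5617 on array 2, and the blood pool 1012 and 2255. The colon pool was the brighter one on both arrays, and neither pool was near background. The ratios were 3.17 and 3.38 (mean 3.27 ± 0.15, 9.67-fold), and 2.55 under median centring, still called.

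Il1r1 encodes the signalling receptor of IL-1 alpha and IL-1 beta (chromosome 1, 40372667 to 40372726). The colon pool read 417 on array 1 and 172 on array 2. The blood pool read 51.3 and 60.8, not well above background on either array. Averaged over both arrays, Il1r1 was therefore at least 4.28-fold higher in the colon pool. Its ratios were 2.25 and 1.94 (2.10 ± 0.22), so array 2 alone lay below this bound. The scanner software's ratio was 5.07.

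Il1rl1 encodes ST2, the IL-33 receptor, which is made as a membrane form and as a soluble form that captures IL-33. Its brightest probe, at base 4998 of variant 1 (chromosome 1, 40522187 to 40522246), read 469 and 208 in the colon pool and 105 and 203 in the blood pool. Its ratios were 1.51 and 1.27 (mean 1.39 ± 0.17, 2.62-fold), which was called. Before normalization the colon and blood signals of this probe were nearly equal on array 2, with a colon over blood ratio of 1.02, against 4.47 on array 1. The call rests on this probe and on the loess fit: under median centring the mean was 1.06 without a call, and over all 3 probes it was 0.77 without a call.

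The other 2 probes of Il1rl1 were not called. At base 2825 of variant 1 (chromosome 1, 40520014 to 40520073) the colon pool read 95.6 and 67.3 and the blood pool 55.7 and 52, and the ratio was 0.37 ± 0.16. The probe at base 2563 of variant 2 (chromosome 1, 40504769 to 40504828) read 116 and 71.7 in the colon pool and 48 and 56 in the blood pool, a ratio of 0.56 ± 0.21. Both blood signals were not well above background on either array, so these are bounds of at least 1.3-fold and at least 1.46-fold, averaged over both arrays. All 3 probes thus read higher in the colon pool on both arrays, by different amounts. With the scanner software's ratios the variant 1 probe at base 2825 read 2.15 and the variant 2 probe 3.22, and both were called.

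Il1rap encodes the accessory chain shared by the receptors of IL-1 and IL-33. Its brightest probe, at base 1409 of variant 2 (chromosome 16, 26701498 to 26701557), read 98.2 and 64.9 in the colon pool and 101 and 159 in the blood pool. The ratios were -0.52 and -0.47 (mean -0.49 ± 0.04, 1.41-fold lower), not called, and the scanner software's ratio of -1.46 was called lower. The probe at base 3256 of variant 1 (26716515 to 26716574) read -0.31 ± 0.07, and the colon pool was not well above background on either array, a bound of at least 1.23-fold lower. With the scanner software's ratio this probe read -2.22 and was called. The third probe, of an Ensembl transcript (26725291 to 26725350), was not well above background in either pool on either array and has no ratio to report. Il1rap was thus the only 1 of the 4 receptor genes whose measured probes all lay below 0. The variant 1 probe was dim in the blood pool too, at 65.8 and 79.1. Which protein form each variant encodes is not given here, so these values are not a reading of the signalling chain alone.

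**Figure D2:**
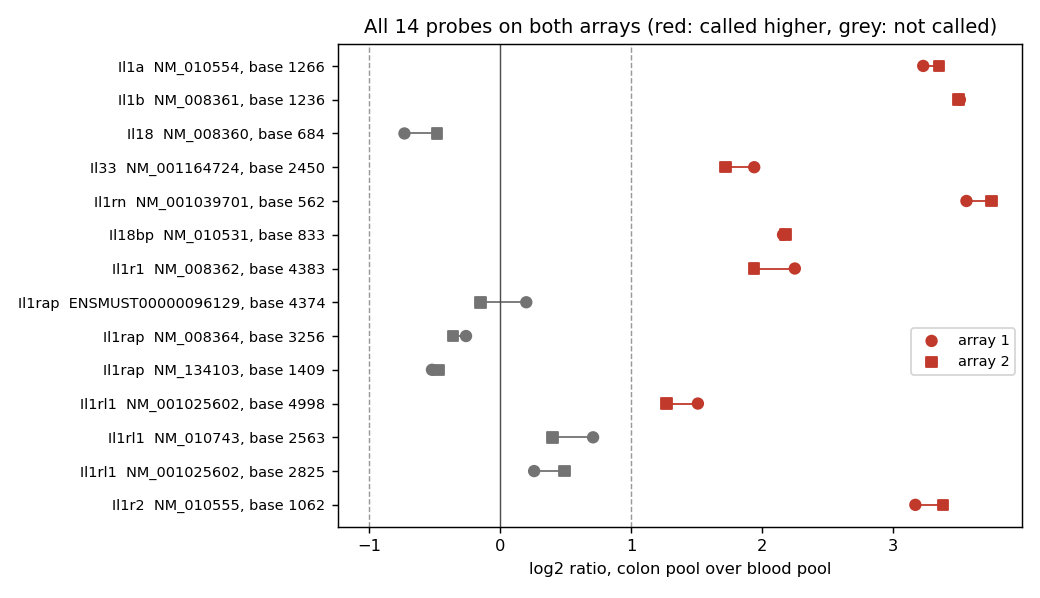
Log2 ratio, colon over blood, of all 14 probes on array 1 (circles) and array 2 (squares), joined by a line, with dashed lines at 2-fold and labels giving the transcript and the probe's first base in it. The 8 red probes lie beyond 2-fold on both arrays, and the Il18, the Il1rap and the other Il1rl1 probes lie between the dashed lines.

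The scaling of the arrays moved the size of these ratios more than the spread between the arrays under loess did. Under median centring the arrays stood further apart, at 3.86 and 1.52 for Il1b and 3.45 and 1.65 for Il1r2. Ratios of dim genes were larger with a smaller offset: with an offset of 16 in place of 50, Il1a read 4.09, Il33 2.66 and Il1r1 2.88. Ratios of bright genes were smaller under median centring, where the median of all measured genes was -0.28 instead of 0.06. With the scanner software's ratios that median was -0.12. The direction of all 10 genes was the same under each of these scalings and with the scanner software's ratios.

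**Figure D3:**
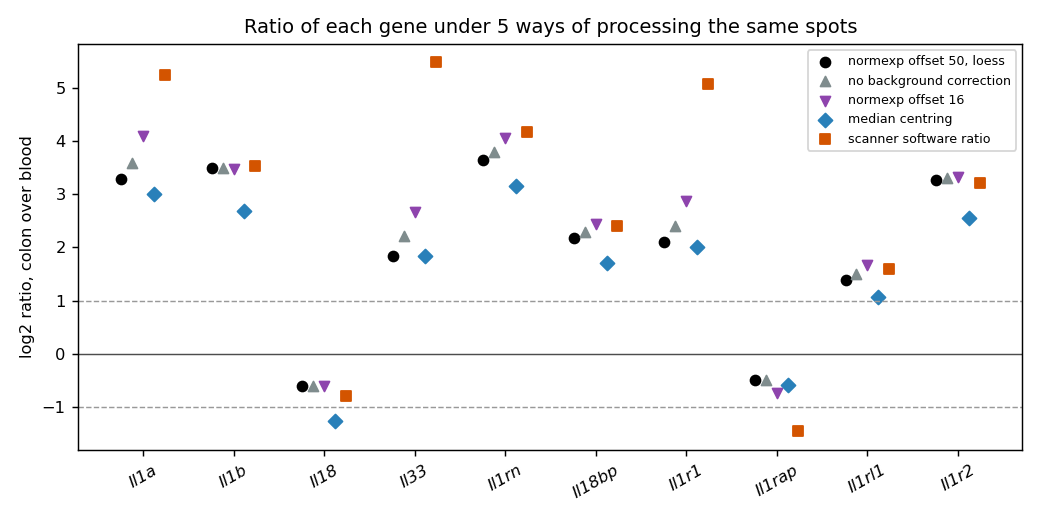
Log2 ratio, colon over blood, of each gene under 5 ways of processing the same spots, with dashed lines at 2-fold. Il1b lies between 2.69 and 3.53, whereas Il33 goes from 1.83 with the offset of 50 to 5.48 with the scanner software's ratio.

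Several of these genes are neighbours on the chromosome. In the receptor cluster of chromosome 1, Il1r2 and Il1r1, 193 kb further on, were both called higher, with a ratio of 3.27 at Il1r2 and a lower bound of 2.10 at Il1r1. Their order is not settled, since the scanner software's ratios were 3.22 and 5.07. The ratio was 0.08 ± 0.06 at Il1rl2, the IL-36 receptor gene, at 242 kb. It was 1.39 at the brightest Il1rl1 probe, 342 kb from Il1r2, and beyond it the IL-18 receptor genes Il18r1 (0.67 ± 0.32 at 378 kb) and Il18rap (-0.27 ± 0.11 at 426 kb) were not called. Of 4 measured probes within 250 kb outside this cluster, 0 were called, where 18.6% of measured genes were called across the array. Il1rn lies at the end of a row of IL-36 and related genes on chromosome 2, of which Il1f9, which encodes IL-36 gamma, was the only measured one (-0.47 ± 0.06, not called). Around Il1a and Il1b, 2 of 11 measured flanking probes were called, those of Ttl (1.51 ± 0.01) and of Slc20a1 (1.62 ± 0.07), and a second Slc20a1 probe read 0.17 ± 0.02. That count is near the array-wide share of 18.6%.

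**Figure D4:**
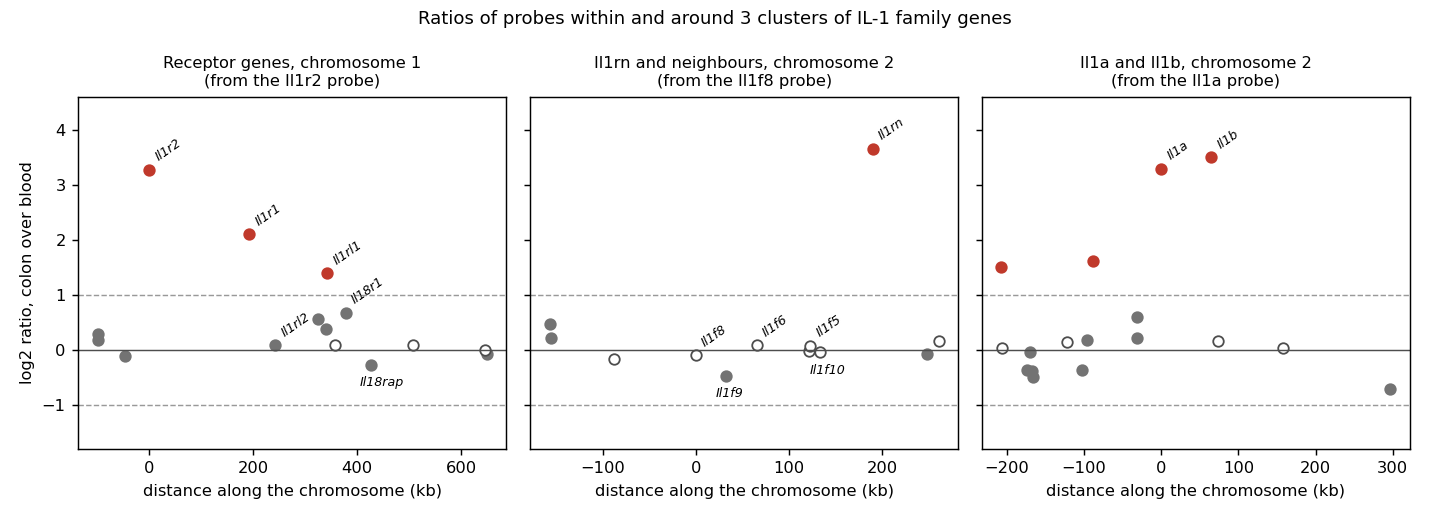
Mean log2 ratio of each probe in and around 3 clusters of IL-1 family genes against its distance in kb from the probe named above each panel; red points were called higher, grey points were not called, and open points were not measured. Il1r2, Il1r1 and Il1rl1 lie above the upper 2-fold line on chromosome 1, Il1rn is the only red point of its panel, and Il1a and Il1b lie together at 3.29 and 3.50.

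Of 11 further ligand and receptor genes of the family 5 were measured, and 0 of these were called in either direction, with a median of -0.27. With 18.6% of measured genes called across the array, 0 of 5 is near the background. Besides Il1rl2, Il18r1, Il18rap and Il1f9 this includes Sigirr, which encodes an inhibitory receptor of the family and read -0.84 and -1.03 (mean -0.94 ± 0.14). With the scanner software's ratios Il18r1 was called higher (1.69), and Il18rap (-1.38), Sigirr (-1.56) and Il1f9 (-3.05) were called lower. The genes Il1f5, Il1f6, Il1f8, Il1f10, Il1rapl1 and Il1rapl2 were not well above background in the same pool on both arrays.

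Of 18 measured genes that carry the signal from the receptor to NF-kappaB, 2 were called higher, 1 lower and 15 not, with a median of -0.09. These shares are near the 14.2% higher and 4.46% lower over all measured genes. Peli1, a ubiquitin ligase of the IRAK complex, was higher at 1.61 ± 0.09, and Tollip, an adaptor that dampens IRAK1, at 1.24 ± 0.05. Neither was called under median centring (0.86 and 0.51), and Tollip read 0.98 without a call as the mean over its probes. Ikbkb, which encodes the kinase that releases NF-kappaB from its inhibitor, was lower at -1.55 ± 0.06. The brightest genes without a call were Rela, an NF-kappaB subunit, with 0.80 on array 1 and 1.23 on array 2, and Irak2 with 1.01 and 0.93.

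Of 16 measured genes of the processing and release of IL-1, 3 were called higher and 4 lower, with a median of -0.61, where 14.2% of all measured genes were higher and 4.46% lower. The higher count is near that share. Higher were Ninj1, which ruptures the membrane of dying cells (1.93 ± 0.24), Nlrp3, the sensor of the inflammasome that activates caspase-1 (1.64 ± 0.27), and Casp4, an inflammatory caspase that senses lipopolysaccharide (1.57 ± 0.24). Lower were the serine protease genes Ctsg (-1.53 ± 0.25) and Prtn3 (-1.38 ± 0.09), Casp1, the caspase that cuts IL-1 beta and IL-18 (-1.16 ± 0.02), and Gsdmd, the pore protein through which they leave (-1.12 ± 0.00).

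Casp1 read 4070 on array 1 and 1505 on array 2 in the colon pool, and 6290 and 14385 in the blood pool, so the blood pool was brighter both times. Nlrp3 read 1191 and 525 in the colon pool and 301 and 459 in the blood pool. The gene of the substrate, Il1b, and that of the sensor, Nlrp3, were thus higher in the colon pool, and those of the protease and the pore were lower. Under median centring none of these 3 processing and release genes kept its call, since each had 1 array short of 2-fold, with means of -1.89 for Casp1 and -1.83 for Gsdmd. Ninj1 and Casp4 (0.79) lost theirs too, while Ctsg and Prtn3 stayed lower. The brightest genes without a call were Mefv, the gene of the sensor pyrin (0.97 ± 0.07), and Capn2, a calpain gene (-0.62 ± 0.06).

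Genes that IL-1 is known to induce were mostly higher. Of 14 measured ones, 10 were called higher, 1 lower and 3 not, with a median of 1.62, against 14.2% higher over all measured genes. The largest ratios were those of the neutrophil chemokine gene Cxcl1 (6.96 ± 0.17), Il6, which encodes the cytokine IL-6 (4.98 ± 0.13), and Cxcl2 (4.06 ± 0.26). Ccl2, a monocyte chemokine gene (3.19 ± 0.27), Ptgs2, the cyclooxygenase-2 gene (2.88 ± 0.08), and Icam1, an adhesion molecule gene (2.01 ± 0.05), followed. Lcn2, which encodes an iron-sequestering protein, was lower at -1.78 ± 0.04. The brightest ones without a call were Nfkbiz, a nuclear regulator of NF-kappaB (0.96 ± 0.03), and Saa3, an acute phase gene (-0.01 ± 0.09). The list was chosen with earlier results of these data known, so its count is a description. Other stimuli induce these genes too, and under median centring 5 of the 14 were called higher, with Icam1 (1.43) among those that lost the call.

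**Figure D5:**
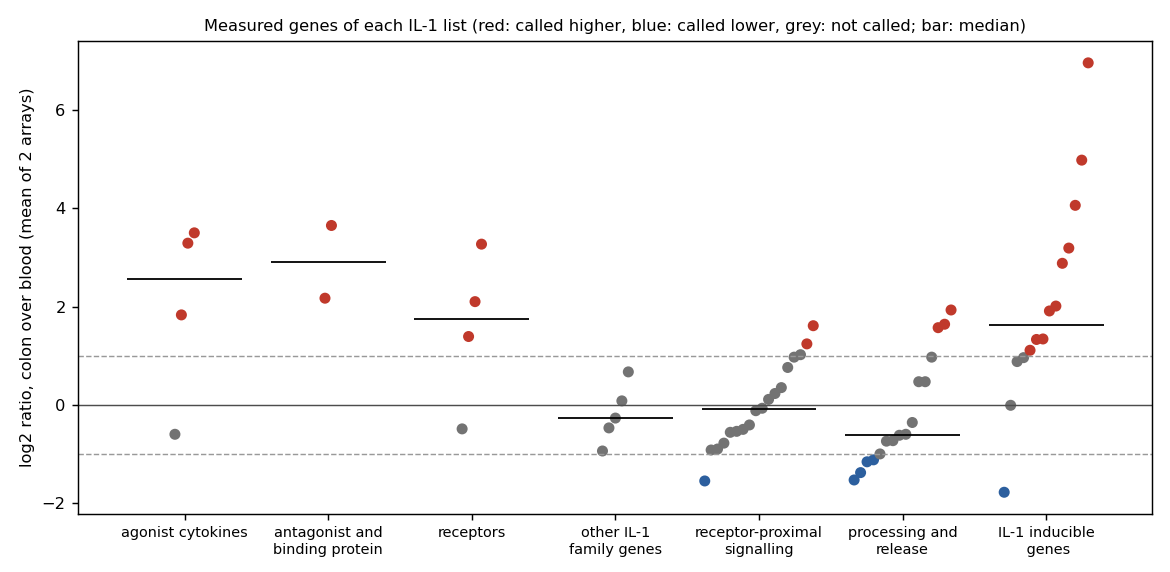
Mean log2 ratio over 2 arrays of every measured gene in the groups of IL-1 genes, with a bar at each group's median and dashed lines at 2-fold. Inducible genes reach from Lcn2 at -1.78 to Cxcl1 at 6.96, and the signalling genes centre on -0.09.

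The labelled cell types were read from their markers. Itgax, the CD11c gene of the colon sort, was higher at 3.35, and Ly6c1 was lower at -3.28. Of 10 macrophage markers 8 were higher and 0 lower (median 3.05), led by Mrc1 (5.78), C1qb (5.70) and C1qa (4.90). Of 9 measured Ly6C-high monocyte markers 9 were lower (median -4.04), led by Chil3 (-6.98), Plac8 (-4.55) and Ifitm6 (-4.37). Ly6c2 was not used here.

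Some markers of cell types outside both sorts were higher in the same pool as the IL-1 family genes, and their part in the ratios was not tested. Beside the counts here and below, 14.2% of all measured genes were called higher and 4.46% lower. Fibroblasts are a known source of IL-33 and carry IL-1R1, and of 9 fibroblast markers 9 were higher (median 6.37). Sums of signal, here and below, were taken after normalization within and between the arrays, over every listed marker with a probe. They are not on the scale of the scanner intensities above. The fibroblast sums were 112845 and 120788 in the colon pool against 1429 and 1352 in the blood pool. The largest fibroblast ratios were those of Dcn (7.01), Lum (6.82) and Col1a1 (6.79). Of 8 epithelial markers 6 were higher (median 2.25), with sums of 6518 and 5683 against 859 and 710, led by Krt8 (4.01), Lgals4 (3.60) and Krt19 (3.15). Of 8 endothelial markers 2 were higher (median 0.77), Egfl7 (3.47) and Plvap (2.74), with sums of 5713 and 5680 against 2566 and 2325. In the blood pool, Pdgfra, Fbln1, Epcam, Krt19, Krt20, Vil1, Cdh5, Tek and Emcn were not well above background on either array.

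ST2 is known from mast cells, type 2 innate lymphoid cells and some T cells. Of 7 measured mast cell markers 3 were higher (median 0.88), Kit (2.51), Mcpt4 (2.12) and Mcpt1 (1.45), while Ms4a2, a chain of the IgE receptor, was not well above background in either pool. In the blood pool Kit and Mcpt1 were not well above background on either array, so their ratios are lower bounds. The mast cell sums were 2907 and 2666 against 1512 and 1548, and the brightest gene in them, Hdc, was not called (0.52 ± 0.12). Of 7 markers of type 2 innate lymphoid cells 5 were higher (median 2.14), led by Il7r (4.10), Areg (3.50) and Il5 (2.34), with sums of 4052 and 3642 against 673 and 527. Of 8 T cell markers 6 were higher (median 1.73), led by Cd28 (3.09), Zap70 (2.67) and Lck (2.08), with sums of 4832 and 4122 against 1656 and 1303.

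Neutrophils are known for high Il1b and Il1r2. Of 9 measured neutrophil markers 0 were higher, 3 lower and 6 not called (median -0.01). Lower were S100a8 (-3.63), S100a9 (-3.28) and Cxcr2 (-1.98). Not called were Mmp9 (0.96), Csf3r (0.30), Ly6g (0.11), Ltf (0.00), Retnlg (-0.01) and Camp (-0.33). The neutrophil sums were 36605 and 32719 in the colon pool against 112057 and 90611 in the blood pool. Bright genes weigh most in such sums, and S100a9 was the brightest of these markers in the blood pool on both arrays. Ngp was not well above background in either pool. The part of neutrophils in the ratios was not tested. Of 7 B cell and plasma cell markers 6 were higher (median 1.78), led by Jchain (5.18) and Mzb1 (3.65). Of 5 measured markers of conventional dendritic cells, Ccr7 was higher (5.07) and Flt3 lower, with -1.61 and -1.40 on the 2 arrays. Of 10 immediate early and heat shock genes, which cell isolation can induce, 4 were higher and 0 lower (median 0.10), led by Hspa1a (4.86), Fosb (2.48) and Egr1 (1.99), with sums of 154190 and 156708 against 74942 and 79197. Their part in the ratios of Il1b and the inducible genes was not tested.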

How the data were processed

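Per the file headers, the deposited scanner files hold a mean intensity per spot and dye and a median intensity of the local background, both linear and not normalized. Their column of log10 ratios, red over green, is the scanner software's own, and the series' value table holds the same deposited log10 ratios, turned to colon over blood, with a largest difference of 4.81e-08. Agilent Feature Extraction is version 10.7.3.1 per the file headers and 10.5.1.1 per the submitters' processing notes. Per the labels' protocols, 25 ng of RNA was amplified from oligo-dT.

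Intensities were corrected by normexp (offset 50) on all spots and normalized by loess within each array, where control spots and outliers had weight 0 (limma 3.58.1, R 4.3.3). Spots of a probe were averaged, array 2 was turned, and the brightest of a gene's probes gave its value. Of 43020 non-control spots, 29514 were named by accession through RefSeq (GRCm38, names alone), 8766 by the file and 4740 not. Probe positions are those of the files (mm9), and exons or untranslated regions are not given for them here. Bounds set the bright pool's mean against the higher of the dim probe's signal and the lowest signal well above background, after loess and Aquantile. They hold for the mean of both arrays under this processing, so 1 array alone or another scaling can fall below them. Sums of marker signals were taken after the same steps. The median intensity of non-control spots was 64.2 to 96.6 per pool and array, over a median local background of 40.5 to 43, so the offset compresses ratios of dim genes. Between 52.9% and 59.6% of spots were well above background, and 0 were saturated. The number of arrays limits the precision. The arrays share 1 slide and 1 scan time, which leaves no batch to test.

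All 10 genes and all their probes are named. Of each pathway list the called members are named, up to 6 per direction by size, with the brightest 2 not called, and of each marker list up to 3 called members. Members, lists and rules were chosen with earlier results of these data known. Promoters and the search for motifs used RefSeq windows. The method was tested on simulated arrays, in which bright probes alone were changed and the dye factor was constant. That test did not cover changes in dim genes or a dye trend along intensity. Alternatives were the background correction, the normalization, the value table, each array alone, the filter, the fold threshold and the mean over probes.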

Additional observations from a re-analysis of the deposited data

How the results depend on the processing

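In 275 combinations of a result and an alternative, the direction and the side of the threshold were kept, or a count stayed within 1.5 times. In 34 others a count moved further, in 10 a ratio gained a call and in 3 it lost one. The scanner software's ratios and the value table entered as separate alternatives. None of the 10 genes turned its direction. The ratios of the scanner software and the deposited value table, which are the same values, called Il1rap lower (-1.46), at its variant 2 probe (-1.46) and its variant 1 probe (-2.22), so 1 of the 10 genes was lower. They also called the Il1rl1 probes of variant 2 (3.22) and at base 2825 (2.15) higher. With them, 1 of the other IL-1 family genes was higher and 3 lower, 3 signalling genes were lower, and 2081 genes across the array were lower. Median centring left Il1rl1 without a call (1.06). It gave 0 higher signalling genes, 0 higher and 2 lower processing genes, 5 higher inducible genes and 1138 higher genes across the array. The mean over probes left Il1rl1 without a call (0.77) and 1 higher signalling gene.

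A filter on both pools left 5 of the 10 genes higher, since Il1a, Il33 and Il1r1 were dim in the blood pool and dropped out. A 4-fold threshold also left 5 (Il1a, Il1b, Il1rn, Il1r2 and Il18bp), with 0 higher and 0 lower signalling genes, 0 and 0 processing genes, 5 higher and 0 lower inducible genes, and 954 higher and 130 lower genes across the array. At 1.5-fold, 1 other family gene was lower, 5 signalling genes were higher and 4 lower, 7 processing genes were lower, and 3493 genes across the array were higher and 1725 lower. With 1 array alone, 0 to 1 other family genes and 1 to 2 signalling genes were lower, and 8 of the 10 genes stayed higher.

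No paired analysis was possible because both arrays hold the same 2 pools. The blood signals of Il33 and Il1r1, and of 2 Il1rl1 probes, were not well above background, so the size of these ratios depends on how the background is treated.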

Other observations

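A probe for Il1bos, an RNA on the strand opposite to Il1b (chromosome 2, 129199679 to 129199738, mm9), read 57.4 on array 1 and 57.3 on array 2 in the colon pool and 50.9 and 52.1 in the blood pool. It was not well above background in either pool on either array, while Il1b read 70826 and 30438 in the colon pool. The antisense probe therefore gives no ratio.

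Before normalization the colon over blood intensity ratio of Il1b was 17.4 on array 1 and 2.26 on array 2. That of Il18 was 0.863 and 0.183, and that of Il1r2 13.2 and 2.49. The raw ratio was higher on array 1, where the colon pool carried Cy5, for each of the 10 genes.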
